A study of Mus musculus with 6 samples.

Results

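The glycolysis genes described here are 34 of the 52856 rows of a gene count table, taken by matching Ensembl mouse gene IDs to a list of symbols. The list covers glucose and lactate transporters, the enzyme steps from hexokinase to lactate dehydrogenase with their main isoforms, and the enzymes that gate the flow of sugar and of pyruvate. RNA-seq was done on CD4+ T cells from the spleens of C57BL/6 mice aged 8 weeks, cultured with antibodies to CD3 and CD28 for 48 hours. The miPEP31 KO group (3 libraries) came from miPEP31-/- mice and the WT group (3 libraries) from wild type mice; strain, age, tissue and stimulation were the same in both. The peptide miPEP31 is translated from the primary transcript that also gives rise to miR-31, and the comparison asks what its loss changes in stimulated T cells. The labels do not say how the allele was made or whether each library came from its own mouse, so p-values measure the spread between these libraries only.

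Glycolysis splits glucose into pyruvate in the cytosol. A T cell that has been stimulated through its antigen receptor takes up much more glucose than a resting one, and turns much of the pyruvate into lactate even when oxygen is plentiful. Most steps can be catalysed by more than one isoform, each from its own gene, and the isoforms differ in kinetics and in the tissues that use them. Whether pyruvate becomes lactate or enters the mitochondria is decided in part by the pyruvate dehydrogenase kinases, which switch pyruvate dehydrogenase off.

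The glycolysis genes were lower in the KO libraries at most steps. Of the 34 genes, 33 passed the filter on low counts, and 19 of these (57.6%) were lower in the miPEP31 KO (edgeR quasi-likelihood test, Benjamini-Hochberg adjusted p under 0.05). Among all 14387 genes tested, 47.3% differed by the same test, 22.2% lower and 25.1% higher. None of the 33 was higher by the adjusted p; 1 of them, Pdhb, was higher at an unadjusted p under 0.05, and DESeq2 and limma-voom also found 0 higher. Pdhb passed with library sizes that were not rescaled or without KO replicate 3, and Bpgm passed without KO replicate 1. The median log2 fold change, KO over WT, was -0.41 over the 33 genes and 0.01 over all genes tested. In 21 of the 33 genes all 3 KO libraries lay below all 3 WT libraries, against 28.4% of all genes tested, and in 1 gene all 3 KO libraries lay above, against 30.6%. A fall of at least 2-fold was seen in 6 genes, against 7.10% of all genes tested: Slc2a3, Pfkm, Aldoc, Eno3, Pdk1 and Pdk2. Together the 34 genes took 1.85, 2.26 and 2.74% of all counts in the KO libraries, against 3.21, 3.28 and 3.14% in the WT libraries (exact permutation p = 0.1, two-sided, the smallest that 3 against 3 libraries allow).

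**Figure D1:**
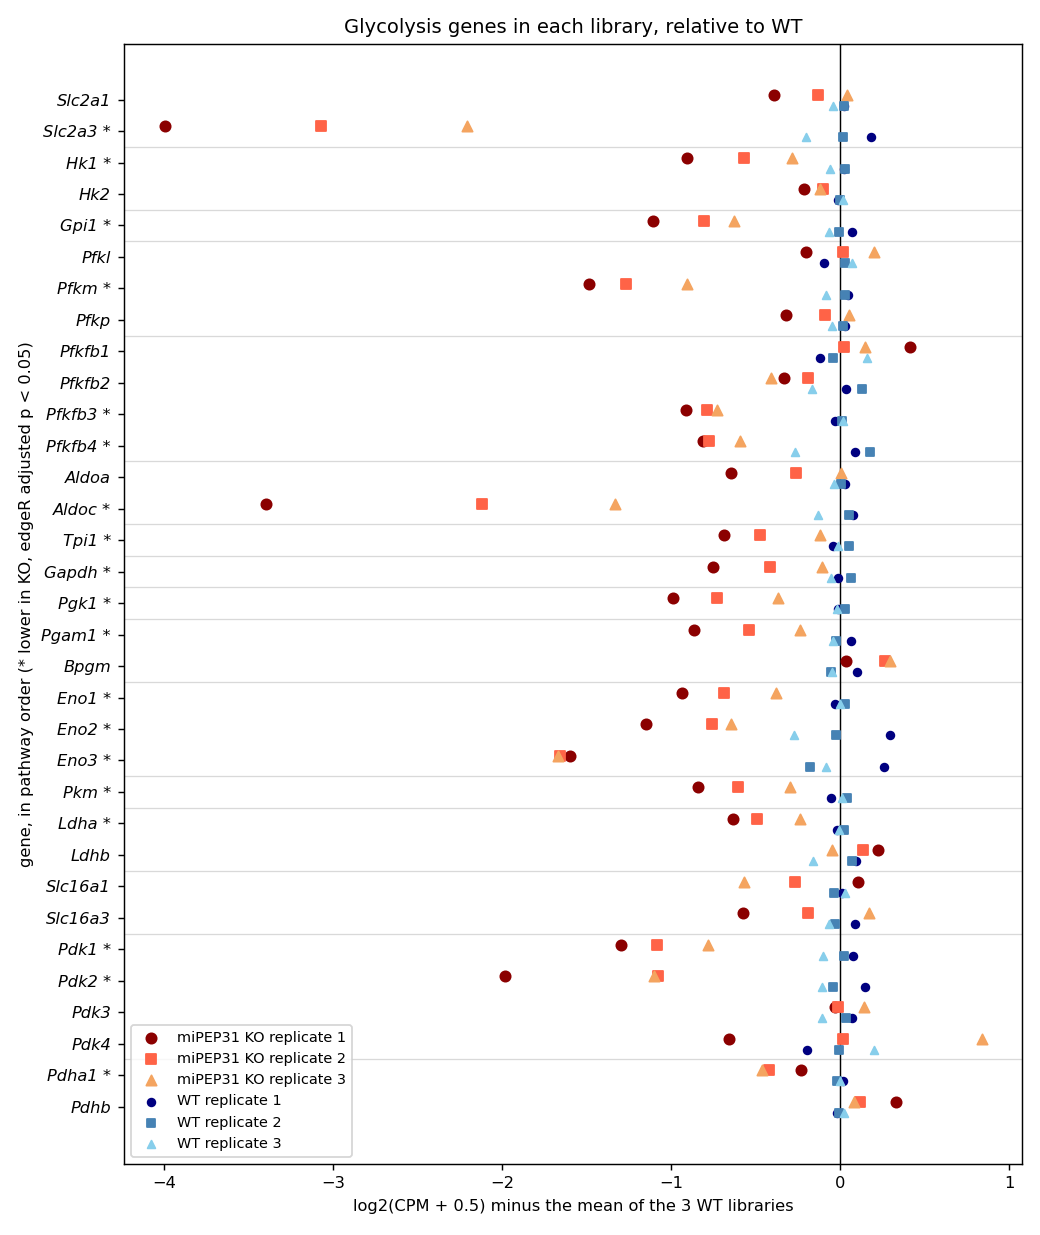
Level of each of the 33 glycolysis genes tested in each library, as log2(CPM + 0.5) minus the mean of the 3 WT libraries, in pathway order. Red symbols are the 3 miPEP31 KO libraries and blue symbols the 3 WT libraries; asterisks mark the 19 genes lower in the KO, and the largest distances are those of Slc2a3 and Aldoc.

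The libraries held between 22865487 and 26295776 counts. The row of Mir31, the microRNA gene of the targeted locus (chromosome 4, 88910557 to 88910662, GRCm38), held 0 counts in each of the 6. This row therefore gives no check on which mice lacked the peptide, and other rows at the locus were not examined. The T cell markers Cd3e, Cd3d, Cd3g, Cd4, Trac and Cd28 summed to 994 to 1111 CPM (counts scaled by the library total) in the KO libraries and 1313 to 1430.1 CPM in the WT libraries, and 5 of the 6 were lower in the KO. CD8 T cell markers summed to 15.9 to 36.9 CPM in the KO libraries and 12.5 to 15.8 CPM in the WT libraries. B cell markers summed to 60.9 to 113 CPM in the KO libraries and 56.5 to 83.4 CPM in the WT libraries, with 3 of 6 higher in the KO. Dendritic cell markers summed to 12.0 to 13.1 CPM in the KO libraries and 6.25 to 7.58 CPM in the WT libraries, with 1 of 3 tested higher. Zbtb46 was the largest part of that sum, with 10.6, 10.2 and 7.27 CPM in the KO libraries and 3.13 to 5.42 CPM in the WT libraries. Flt3 stayed at or under 3.23 CPM, and Itgax, Xcr1 and Siglech at or under 0.968 CPM, in every library. Natural killer cell markers summed to 10.5 to 21.9 CPM in the KO libraries and 5.09 to 7.50 CPM in the WT libraries. Eomes made up most of that sum, with 21.4, 15.3 and 9.89 CPM in the KO libraries and 4.56 to 6.85 CPM in the WT libraries, whereas Ncr1 and Klra8 stayed at or under 0.301 CPM and Klrb1c at or under 1.18 CPM in every library. Macrophage markers summed to at most 7.84 CPM in every library, with Adgre1 at 0. Platelet markers summed to 3.28 to 5.29 CPM in the KO libraries and 1.52 to 2.62 CPM in the WT libraries, with 2 of 2 tested higher. Erythroid markers summed to 0.474 to 0.559 CPM in the KO libraries and 0.887 to 1.82 CPM in the WT libraries, with 0 tested. Neutrophil markers summed to at most 0.223 CPM in the KO libraries and 0.760 to 1.44 CPM in the WT libraries, with S100a8, S100a9 and Elane at 0. The part of these markers in the results was not tested. In such bulk libraries, fewer cells that express a gene and less of its RNA per cell cannot be told apart.

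Glucose enters T cells through facilitated transporters, and of the 2 on the list 1 fell. Slc2a3, which encodes the high-affinity transporter GLUT3 (chromosome 6, 122727809 to 122801640, GRCm38), had 97.6, 186 and 339 CPM in KO libraries 1, 2 and 3, against 1778, 1586 and 1358 CPM in WT libraries 1, 2 and 3. The groups lay far apart, and KO library 1 was the lowest. Its log2 fold change was -2.92 ± 0.39 (SE, edgeR adjusted p = 6.79e-04), a 7.59-fold lower level in the KO and the largest fall among the 33 genes. Slc2a3 counts were fractional in every library, and its model overlaps a predicted gene on the same strand, so the value is less certain where reads fall in both. Slc2a1, which encodes GLUT1, the transporter most often tied to T cell activation, had 229, 275 and 309 CPM in the KO libraries and 305, 305 and 292 CPM in the WT libraries. These ranges overlapped (log2 fold change -0.15 ± 0.10, adjusted p = 0.263), though the call was made when KO replicate 3 was left out (adjusted p = 0.0247). Per kilobase of merged exons, Slc2a3 made up 17.1, 24.6 and 34.7% of the pair in the KO libraries, against 73.8, 71.6 and 69.3% in the WT libraries. Per kilobase, Slc2a1 was thus the more abundant transporter RNA of the pair in all 3 KO libraries, and Slc2a3 in all 3 WT libraries. In CPM without division by length, Slc2a3 was above Slc2a1 in KO library 3 (339 against 309 CPM) and below it in KO libraries 1 and 2.

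Hexokinase traps glucose in the cell by phosphorylating it. Hk1, the broadly expressed form, had 279, 354 and 430.4 CPM in the KO libraries and 534, 536 and 504 CPM in the WT libraries, a log2 fold change of -0.57 ± 0.14 (edgeR adjusted p = 0.0105). Hk2, the form that growth signals induce, had 289, 313 and 308 CPM in the KO libraries and 332, 334 and 338 CPM in the WT libraries. Its KO libraries also lay below all WT libraries, by a log2 fold change of only -0.14 ± 0.06 that missed the threshold (adjusted p = 0.0665); the call was made with the RLE or upper-quartile factors and with DESeq2. Hk3 stayed at 0.0845 to 0.516 CPM over the 6 libraries and was not tested. Hk1 was 44.6 ± 4.55% of the hexokinase RNA per kilobase in the KO and 52.3 ± 1.08% in the WT (SD, n = 3 each), with no overlap. Which of Hk1 and Hk2 was the more abundant depended on the length used: with the longest transcript in place of merged exons, Hk1 was 59.6% in the KO and 66.8% in the WT. Gpi1, which encodes phosphoglucose isomerase, the next enzyme and one without an isoform, had 629, 774 and 878 CPM in the KO libraries, against 1424, 1347 and 1298 CPM in the WT libraries. The groups were well apart (log2 fold change -0.83 ± 0.11, adjusted p = 6.87e-04).

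**Figure D2:**
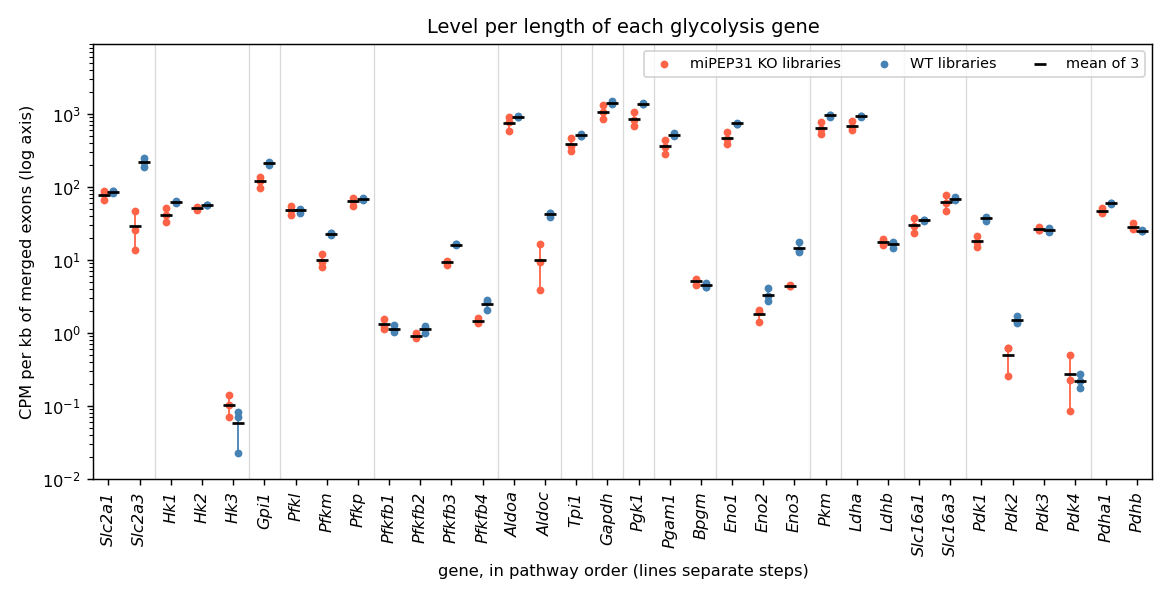
Level of the 34 glycolysis genes in CPM per kilobase of merged exons on a log axis, in pathway order, with KO libraries left of WT libraries for each gene. Points are libraries and dashes are means of 3; Gapdh, Pgk1, Aldoa, Ldha and Pkm stand highest in both groups and Hk3 is lowest.

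Phosphofructokinase, the committed step, is built of subunits from 3 genes, and the least abundant of these fell. Pfkm, named for muscle (chromosome 15, 98092589 to 98132451), had 26.9, 31.3 and 40.3 CPM in the KO libraries and 78.6, 77.7 and 71.8 CPM in the WT libraries, with a log2 fold change of -1.21 ± 0.13 (edgeR adjusted p = 2.73e-04). Its model overlaps Senp1 and Gm26513, 1 of them on the same strand and 1 on the opposite strand. Pfkl, the liver-type subunit, had 274, 319 and 363 CPM in the KO libraries and 295, 321 and 330.2 CPM in the WT libraries, and the groups overlapped (adjusted p = 0.914). Pfkp, the platelet-type subunit, had 730.0, 858 and 947 CPM in the KO libraries, against 932, 923 and 884 CPM in the WT libraries (log2 fold change -0.11 ± 0.09, adjusted p = 0.347; 0.0451 without KO replicate 3). Per kilobase, Pfkm made up 8.10 ± 0.604% of the subunit RNA in the KO and 16.5 ± 0.731% in the WT (SD, n = 3 each), while Pfkl was at 39.6 ± 0.114% in the KO and 34.2 ± 1.97% in the WT. The summed subunit level was 121 ± 16.7 CPM per kilobase in the KO and 138 ± 1.83 in the WT, with overlapping libraries (exact permutation p = 0.2).

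The PFKFB enzymes make and remove the fructose bisphosphate that activates phosphofructokinase, and of the 4 genes 2 fell. Pfkfb3, the form whose kinase activity strongly exceeds its phosphatase activity (chromosome 2, 11471433 to 11554077), had 64.6, 70.3 and 73.2 CPM in the KO libraries, against 119, 123 and 123 CPM in the WT libraries. These were tight groups, and the fall, with a log2 fold change of -0.81 ± 0.06 (edgeR adjusted p = 6.02e-05), differed little between KO libraries. Pfkfb4 had 6.69, 6.85 and 7.87 CPM in the KO libraries and 12.9, 13.7 and 9.97 CPM in the WT libraries (log2 fold change -0.78 ± 0.15, adjusted p = 0.00398). Pfkfb1, the liver and muscle form, and Pfkfb2, the heart form, stayed between 4.12 and 9.08 CPM in all 6 libraries, and neither passed the test (adjusted p = 0.337 and 0.0799). Pfkfb3 was 71.3 ± 1.83% of the PFKFB RNA per kilobase in the KO and 77.2 ± 1.66% in the WT, and Pfkfb1 was 10.2 ± 1.94% in the KO and 5.39 ± 0.657% in the WT (SD, n = 3 each).

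Aldolase splits the sugar bisphosphate into a pair of triose phosphates, and its brain-type isoform fell. Aldoc (chromosome 11, 78322968 to 78327781) had 12.4, 30.9 and 53.5 CPM in the KO libraries, against 143, 141 and 124 CPM in the WT libraries. The KO libraries spread over 4.31-fold but stayed below every WT library (log2 fold change -2.07 ± 0.41, edgeR adjusted p = 0.00437, a 4.21-fold lower level). Without the filter on low counts the adjusted p was 0.0681. Aldoa, the main form, had 1692, 2213 and 2660.0 CPM in the KO libraries and 2704, 2659 and 2589 CPM in the WT libraries. KO library 3 reached the WT range, and the test did not pass (log2 fold change -0.28 ± 0.14, adjusted p = 0.139); without KO replicate 3 it did (0.00921). Aldoc was 0.651, 1.23 and 1.76% of aldolase RNA per kilobase in the KO libraries and 4.50, 4.51 and 4.10% in the WT libraries. The 250 bases before a start site of each aldolase gene, from RefSeq's promoter table (GRCm38.p6), are shown because hypoxia-inducible factors bind DNA with the core letters ACGTG or GCGTG. They run 5′ to 3′ on the gene's strand, with each ACGTG or GCGTG in capitals, also where it lies on the other strand (CACGT or CACGC). The Aldoc window (chr11:78322823-78323072, plus strand) holds 1 GCGTG, and the Aldoa window (chr7:126800448-126800697, minus strand) holds neither.
Aldoc: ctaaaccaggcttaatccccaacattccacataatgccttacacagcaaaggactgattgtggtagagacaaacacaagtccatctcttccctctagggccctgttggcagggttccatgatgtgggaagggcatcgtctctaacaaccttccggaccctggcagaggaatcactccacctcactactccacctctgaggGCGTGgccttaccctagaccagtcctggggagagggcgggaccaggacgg
Aldoa: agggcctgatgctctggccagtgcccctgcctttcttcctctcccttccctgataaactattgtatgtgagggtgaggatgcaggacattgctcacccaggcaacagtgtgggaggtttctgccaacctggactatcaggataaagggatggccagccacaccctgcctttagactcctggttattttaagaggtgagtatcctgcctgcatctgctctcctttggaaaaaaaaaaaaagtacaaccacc
The table has 2 windows for Aldoc and 3 for Aldoa; the one nearest the 5′ end of the gene model was taken, and the counts do not show which start the cells used.

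The enzymes from triosephosphate isomerase to pyruvate kinase include the most abundant RNAs of the pathway, led per kilobase by Gapdh at 1070.4 CPM in the KO and 1415 CPM in the WT and by Pgk1 at 853 CPM in the KO and 1359 CPM in the WT. Each step had an abundant gene that fell, with log2 fold changes between -0.67 and -0.40. Tpi1, triosephosphate isomerase, had 861, 999.5 and 1278 CPM in the KO libraries, against 1346, 1438 and 1375 CPM in the WT libraries (log2 fold change -0.41 ± 0.13, edgeR adjusted p = 0.0314). Gapdh, the dehydrogenase often used as a reference gene, had 3475, 4379 and 5417 CPM in the KO libraries and 5788, 6112 and 5642 CPM in the WT libraries (log2 fold change -0.40 ± 0.14, adjusted p = 0.0435). In both, KO library 3 came close to the lowest WT library. Neither call held in every setting: without 1 library the adjusted p reached 0.112 for Tpi1 and 0.126 for Gapdh, and the Gapdh log2 fold change was -0.26 without KO replicate 1. Pgk1, phosphoglycerate kinase, the first step that makes ATP, had 1539, 1842 and 2362 CPM in the KO libraries, against 3018, 3118 and 3014 CPM in the WT libraries (log2 fold change -0.67 ± 0.14, adjusted p = 0.00465). Its groups were far apart, and its WT libraries were tight. Pgam1, the phosphoglycerate mutase, had 561, 703 and 867 CPM in the KO libraries and 1069, 1006 and 991 CPM in the WT libraries (log2 fold change -0.53 ± 0.14, adjusted p = 0.0148; 0.0605 without KO replicate 2 or without WT replicate 1). Bpgm, which makes the bisphosphoglycerate known from red cells, had 16.3, 19.2 and 19.7 CPM in the KO libraries and 17.1, 15.3 and 15.4 CPM in the WT libraries, and did not pass (adjusted p = 0.136).

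All 3 enolase genes on the list fell. Eno1, the ubiquitous form, had 2068, 2454 and 3033 CPM in the KO libraries, against 3868, 4036 and 3944 CPM in the WT libraries (log2 fold change -0.65 ± 0.12, edgeR adjusted p = 0.00342). Eno3, the muscle form (chromosome 11, 70657202 to 70662513), had 7.94, 7.59 and 7.53 CPM in the KO libraries and 30.1, 22.1 and 23.6 CPM in the WT libraries (log2 fold change -1.72 ± 0.13, adjusted p = 5.57e-05). Here the KO libraries lay within 1.05-fold of each other, the narrowest KO spread among the 33 genes, and the level was 3.29-fold lower. Eno2, the neuronal form, had 6.69, 8.93 and 9.68 CPM in the KO libraries and 19.1, 15.2 and 12.7 CPM in the WT libraries (log2 fold change -0.89 ± 0.19, adjusted p = 0.00568). Per kilobase, Eno1 was at least 97.1% of enolase RNA in every library, and Eno3 was 0.957 ± 0.205% in the KO and 1.94 ± 0.358% in the WT (SD, n = 3 each). Pkm, pyruvate kinase, had 2641, 3108 and 3845 CPM in the KO libraries, against 4552, 4851 and 4765 CPM in the WT libraries (log2 fold change -0.56 ± 0.12, adjusted p = 0.00625). The splice forms PKM1 and PKM2 come from this gene and cannot be separated in counts per gene. Counts of Gapdh, Pgam1, Eno1 and Pkm were fractional in all 6 libraries; how such values arose is not stated in the labels.

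Lactate dehydrogenase turns pyruvate into lactate, and of the 2 isoforms on the list 1 fell. Ldha, the form that favours lactate, had 1974, 2179 and 2601 CPM in the KO libraries and 3024, 3118 and 3052 CPM in the WT libraries (log2 fold change -0.45 ± 0.09, edgeR adjusted p = 0.00587). Ldhb, the heart form, had 30.1, 28.3 and 24.8 CPM in the KO libraries, against 27.4, 27.0 and 22.9 CPM in the WT libraries, and the groups overlapped (adjusted p = 0.429). Ldhb was 2.58 ± 0.576% of this RNA per kilobase in the KO and 1.74 ± 0.166% in the WT (SD, n = 3 each). The lactate transporters did not pass. Slc16a1, which encodes MCT1, had 166, 129 and 104 CPM in the KO libraries and 156, 150.4 and 157 CPM in the WT libraries. Slc16a3, which encodes MCT4, the transporter of strongly glycolytic cells, had 245, 319.9 and 412 CPM in the KO libraries and 389, 359 and 349.6 CPM in the WT libraries. The pair ranked the KO libraries in opposite orders: Slc16a1 was 44.9, 32.6 and 23.3% of the pair per kilobase in KO libraries 1, 2 and 3, against 32.5, 33.5 and 35.1% in the WT libraries. The adjusted p was 0.255 for Slc16a1 (0.00439 without KO replicate 1) and 0.429 for Slc16a3 (0.0234 without KO replicate 3).

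Of the 4 kinases that switch pyruvate dehydrogenase off, 2 fell and 2 did not pass the test. Pdk1 (chromosome 2, 71873224 to 71903858) had 116, 134 and 166 CPM in the KO libraries, against 301, 289.8 and 267 CPM in the WT libraries (log2 fold change -1.04 ± 0.12, edgeR adjusted p = 3.65e-04, 2.06-fold lower). Pdk3, the most abundant kinase RNA of the KO libraries per kilobase, had 64.6, 65.2 and 72.6 CPM in the KO libraries and 69.1, 67.5 and 61.1 CPM in the WT libraries. These ranges overlapped in part (edgeR adjusted p = 0.738). Pdk1 therefore made up 36.8, 39.6 and 41.9% of kinase RNA per kilobase in the KO libraries, against 57.3, 57.1 and 57.3% in the WT libraries. Pdk3 made up 62.3, 58.5 and 55.9% in the KO libraries and 40.0, 40.4 and 39.9% in the WT libraries. The leading kinase RNA per kilobase thus differed between the groups, but this depended on division by length. In CPM, Pdk1 was above Pdk3 in every library. With the longest transcript as length, Pdk1 was 44.6% and Pdk3 53.8% in the KO, against 62.2% and 35.2% in the WT. Pdk2 was rare, at 0.820, 1.97 and 1.94 CPM in the KO libraries and 5.29, 4.56 and 4.35 CPM in the WT libraries (log2 fold change -1.58 ± 0.31, adjusted p = 0.00388, 2.99-fold lower). Pdk4, the starvation-induced form, stayed at 0.302 to 1.76 CPM over the 6 libraries (adjusted p = 0.703). The same promoter window holds 1 GCGTG in Pdk1 (chr2:71872974-71873223, plus strand), and 1 ACGTG and 3 GCGTG in Pdk3 (chrX:93832151-93832400, minus strand), the kinase that did not pass.
Pdk1: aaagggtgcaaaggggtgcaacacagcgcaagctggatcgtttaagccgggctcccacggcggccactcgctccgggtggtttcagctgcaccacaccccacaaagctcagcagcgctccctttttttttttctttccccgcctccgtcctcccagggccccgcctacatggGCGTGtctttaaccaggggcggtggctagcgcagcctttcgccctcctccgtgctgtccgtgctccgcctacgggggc
Pdk3: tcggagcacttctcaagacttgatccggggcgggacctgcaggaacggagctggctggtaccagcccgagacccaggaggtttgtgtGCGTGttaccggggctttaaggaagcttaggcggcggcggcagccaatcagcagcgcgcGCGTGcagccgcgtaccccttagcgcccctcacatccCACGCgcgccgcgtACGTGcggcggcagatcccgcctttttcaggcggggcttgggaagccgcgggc
The aldolase and kinase pairs were chosen for display after their values were seen.

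Of the 2 subunits of the first pyruvate dehydrogenase enzyme, E1, 1 fell. Pdha1, the catalytic alpha subunit, had 189.7, 166 and 161 CPM in the KO libraries and 225, 219.7 and 222 CPM in the WT libraries (log2 fold change -0.37 ± 0.07, edgeR adjusted p = 0.00422). Pdhb, the beta subunit, had 121, 105 and 102 CPM in the KO libraries, against 95.4, 96.2 and 97.9 CPM in the WT libraries. All 3 KO libraries lay above the WT libraries, but the test did not pass (log2 fold change 0.18 ± 0.08, adjusted p = 0.0799). Pdha1 was 61.8, 62.1 and 61.9% of the pair per kilobase in the KO libraries and 70.9, 70.3 and 70.1% in the WT libraries, a spread within each group far below the gap between groups.

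Isoform shares could be compared at 11 of the 16 steps, those with more than 1 gene. Of the 23 shares counted, 19 did not overlap between KO and WT libraries. Each of the 19 had an exact permutation p of 0.1, the smallest possible here, and an adjusted p of 0.121 over the 23 shares. The 4 that overlapped were those of Pfkfb4, Eno2, the Slc16a pair and Pdk4. Shares of the same step are not independent, since a rise in 1 must be met by a fall in others. Among the levels of all genes tested, 28.4% had all KO libraries below all WT libraries and 30.6% had them above. No such share was computed for isoform shares of other genes. Summed over its isoforms, every one of the 16 steps had a lower mean level in the KO. At 14 steps all KO libraries lay below all WT libraries, as did 28.4% of all single genes tested. Phosphofructokinase and aldolase were the exceptions (exact permutation p = 0.2 each). With plain library sizes the means of all 16 steps were still lower, and the libraries of lactate export and of the E1 subunits overlapped as well, leaving 12 steps without overlap. As a ratio the glucose transporters had the widest gap (log2 ratio -1.52), at 106 ± 28.1 CPM per kilobase in the KO and 303 ± 31.0 in the WT (SD, n = 3 each). Lactate export and the E1 subunits had the smallest, with log2 ratios of -0.18 each.

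**Figure D3:**
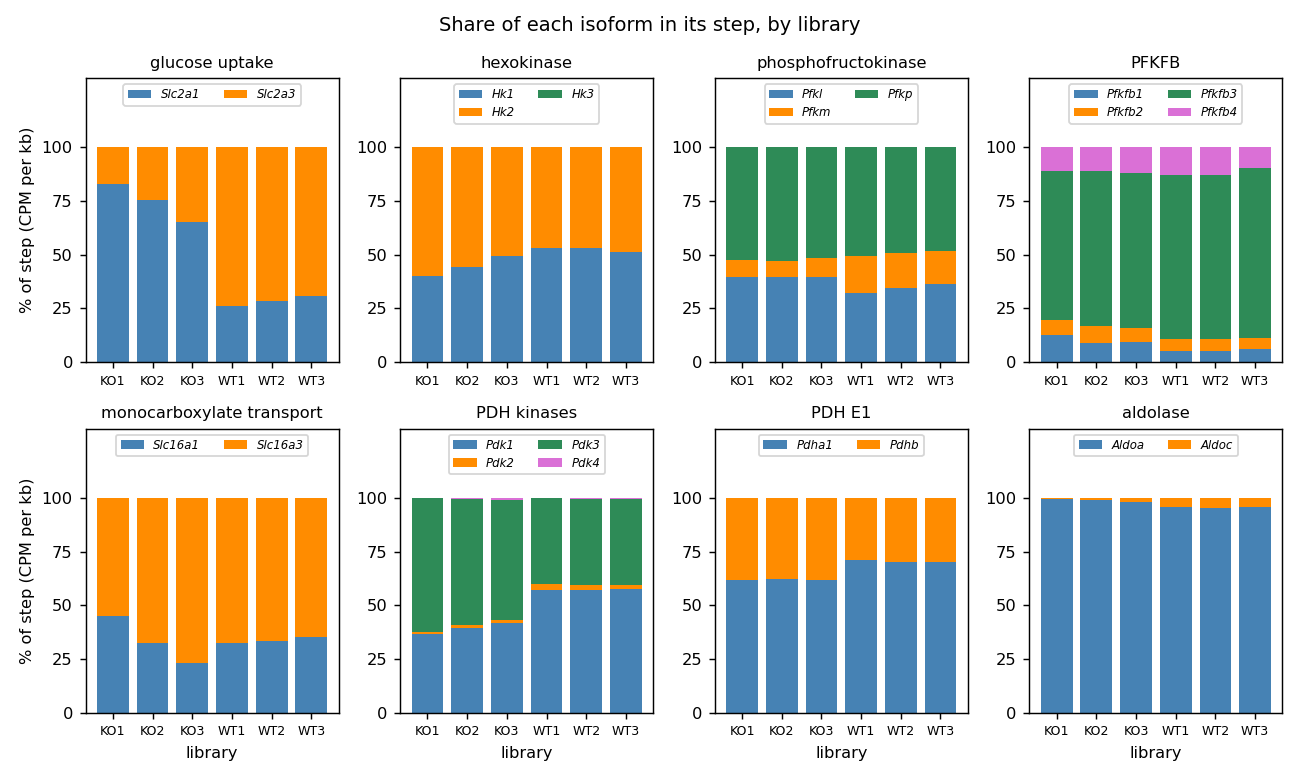
Share of each isoform in its step, in percent of the summed CPM per kilobase of merged exons, for 8 of the steps with more than 1 gene, with the 3 KO libraries left of the 3 WT libraries. Slc2a3 fills 17.1 to 34.7% of glucose uptake in the KO libraries and 69.3 to 73.8% in the WT libraries, and Pdk1 fills 36.8 to 41.9% of the kinases in the KO libraries and 57.1 to 57.3% in the WT libraries.

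The 3 KO libraries were not alike in these genes. Relative to the WT mean, the median over the 33 genes on the log2(CPM + 0.5) scale was -0.69 in KO library 1, -0.47 in KO library 2 and -0.29 in KO library 3, while the medians over all genes tested were 0.02, 0.01 and 0.01. The WT libraries had medians of 0.03, 0.02 and -0.05 over the 33 genes. KO library 1 was the lowest of the 3 in 26 of the 33 genes (78.8%, against 39.6% of all genes tested), and KO library 3 the highest in 24 (72.7%, against 38.7%). The order with library 1 lowest, library 2 between and library 3 highest was seen in 24 of the 33 genes (72.7%), against 28.2% of all genes tested, and in 16 of the 19 genes that fell. The opposite order was seen in 5 genes, Eno3, Ldhb, Slc16a1, Pdha1 and Pdhb (15.2%, against 27.7% of all genes tested). Over all genes these opposite orders were the most frequent, so the KO libraries differed from one another along one ranking beyond glycolysis too. Each of the 19 genes that fell was below every WT library in each KO library. Their medians were -0.93, -0.76 and -0.59 in KO libraries 1, 2 and 3. These 19 were picked by the test on the same libraries, so low values in the KO libraries follow in large part from that choice.

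**Figure D4:**
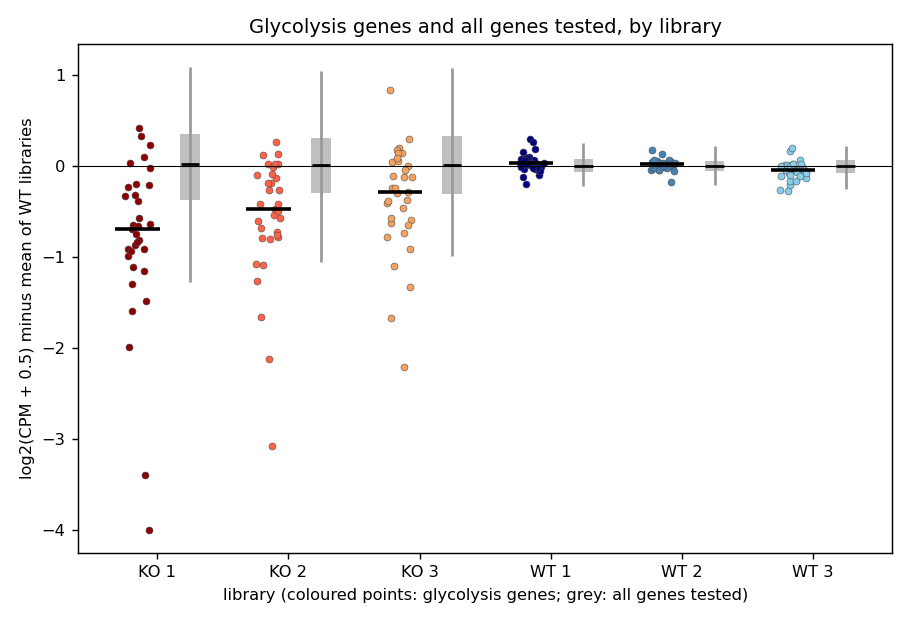
Level in each library as log2(CPM + 0.5) minus the mean of the WT libraries: coloured points are the 33 glycolysis genes with their median as a bar, and grey marks are all genes tested, with the box from the 25th to the 75th percentile and the line from the 5th to the 95th. The glycolysis medians lie at -0.69, -0.47 and -0.29 in KO libraries 1, 2 and 3 and near 0 in the WT libraries, while those of all genes stay near 0 in all 6.

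**Figure D5:**
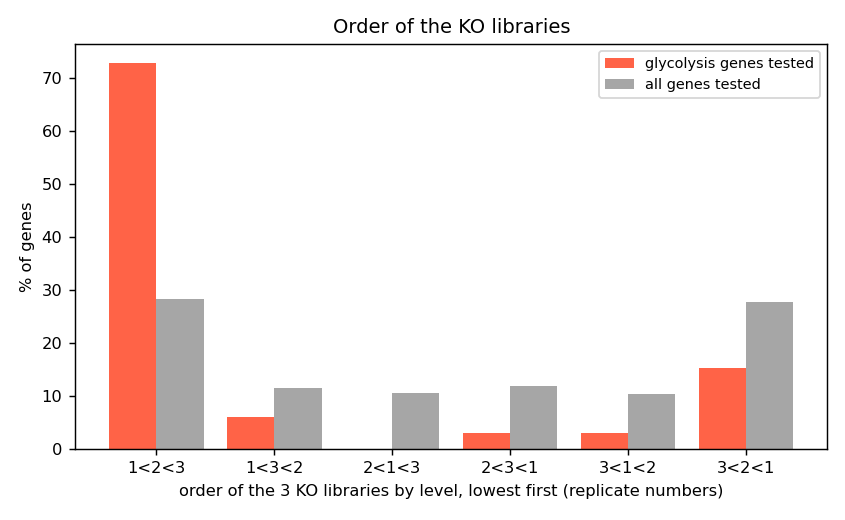
Percent of the 33 glycolysis genes (red) and of all genes tested (grey) that rank the 3 KO libraries in each possible order, lowest level first. The order 1, 2, 3 holds 72.7% of the glycolysis genes and 28.2% of all genes.

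Markers of other cells also ranked the KO libraries. Cd8a, a coreceptor of CD8 T cells, had 7.20, 13.0 and 16.5 CPM in KO libraries 1, 2 and 3 and 2.66 to 4.46 CPM in the WT libraries. Cd79a, a B cell receptor component, had 10.2, 13.7 and 24.1 CPM in KO libraries 1, 2 and 3 and 5.62 to 10.4 CPM in the WT libraries. Cd4 itself had 295, 311 and 301 CPM in the KO libraries and 498, 449.7 and 421 CPM in the WT libraries. The share of counts from the mitochondrial genome was 1.69 to 1.83% in the KO libraries and 2.06 to 2.17% in the WT libraries. The part of these differences in the glycolysis results and in the order of the KO libraries was not tested.

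Other genes that hypoxia-inducible factors are known to activate, outside glycolysis, were also lower in the KO. Of 24 tested, 15 fell and 1 rose, against 22.2% lower and 25.1% higher among all genes tested, with a median log2 fold change of -0.60. Mif, a cytokine, had 416, 446 and 455 CPM in the KO libraries and 666, 658 and 653 CPM in the WT libraries (log2 fold change -0.59 ± 0.06, edgeR adjusted p = 1.42e-04). Ndrg1, a stress-induced gene, had 45.0, 73.4 and 109 CPM in the KO libraries, against 287, 279 and 237 CPM in the WT libraries (log2 fold change -1.82 ± 0.27, adjusted p = 0.00109). Car12, a carbonic anhydrase, had 14.0, 11.2 and 8.26 CPM in the KO libraries and 30.0, 25.2 and 24.2 CPM in the WT libraries (log2 fold change -1.25 ± 0.18, adjusted p = 9.86e-04), an order of KO libraries opposite to that of Ndrg1. The 1 gene that rose was Plod1, a collagen-modifying enzyme (log2 fold change 0.81 ± 0.12, adjusted p = 0.00113). The list's medians against the WT mean were -0.999, -0.63 and -0.28 in KO libraries 1, 2 and 3, the same ranking as the glycolysis genes. ACGTG or GCGTG, searched on both strands, was in the 250-base window of 26 of the 33 glycolysis genes with a RefSeq promoter entry (78.8%), against 38.6% of all 32851 windows. The median GC content was 59.2% in those 33 windows and 52.4% in all windows. Of the genes with a window, 13 of the 18 that fell held a motif, and so did 12 of the 14 others tested, Aldoc and Pdk1 among the first and Pdk3 among the second. One window was taken per glycolysis gene, while the 32851 windows came from 27025 genes. The start site taken lay 13205 bases from the gene model start in Pfkfb2 and 4329 bases from it in Ldha. Bases just after the start site matched an annotated transcript in 26 of the 33 genes. A match is only these letters in this window.

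Of 22 regulators of glycolysis tested, 3 fell and 7 rose, near the shares of all genes tested (22.2% lower and 25.1% higher), with a median log2 fold change of 0.15. Without WT replicate 2 only 1 of them fell, and without KO replicate 2 only 4 rose. Hif1a, the inducible subunit of the hypoxia factor, had 606, 679 and 752 CPM in the KO libraries and 804, 924 and 878 CPM in the WT libraries (log2 fold change -0.36 ± 0.09, edgeR adjusted p = 0.0124). Vhl, which marks that subunit for degradation, fell as well (log2 fold change -0.53 ± 0.11, adjusted p = 0.00549). Myc, another activator of glycolytic genes, had 246, 214 and 143 CPM in the KO libraries, against 270.0, 262 and 312 CPM in the WT libraries, and missed the threshold (log2 fold change -0.48 ± 0.18, adjusted p = 0.0527). Its KO libraries lay in the reverse order of most glycolysis genes. Arrdc4, an arrestin that lowers glucose uptake, rose, at 5.13, 5.51 and 8.09 CPM in the KO libraries and 1.34, 1.86 and 2.18 CPM in the WT libraries (log2 fold change 1.80 ± 0.26, adjusted p = 8.92e-04). Its relative Txnip had 96.3, 127 and 162 CPM in the KO libraries and 103, 117 and 111 CPM in the WT libraries, and did not pass (adjusted p = 0.311). Prkaa1, a catalytic subunit of the energy sensor AMPK, rose (41.4 ± 1.59 CPM in the KO and 26.7 ± 0.546 CPM in the WT, SD, n = 3 each; log2 fold change 0.63 ± 0.07, adjusted p = 2.09e-04).

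In pathways next to glycolysis, genes were called in both directions, and the counts are to be read against the 22.2% lower and 25.1% higher among all genes tested. Of the 9 pentose phosphate genes, 2 fell and 4 rose (median log2 fold change 0.13). Transketolase Tkt had 570.0 ± 9.04 CPM in the KO and 716 ± 13.7 CPM in the WT, and transaldolase Taldo1 131 ± 4.35 CPM in the KO and 98.6 ± 2.54 CPM in the WT (SD, n = 3 each; edgeR adjusted p = 0.00125 and 8.13e-04). Of the 9 genes that handle pyruvate at the mitochondria, 3 fell and 3 rose, again near those shares. Pcx, pyruvate carboxylase, fell to 17.7, 26.7 and 30.2 CPM in the KO libraries, against 64.0, 67.6 and 64.2 CPM in the WT libraries (log2 fold change -1.39 ± 0.17, adjusted p = 4.12e-04), while Mpc1, a subunit of the mitochondrial pyruvate carrier, rose (log2 fold change 0.37 ± 0.06, adjusted p = 0.00211). Of 17 citrate cycle genes, 7 fell and 1 rose. The leading falls were in succinyl-CoA ligase, with Suclg1 at 97.5 ± 4.41 CPM in the KO and 179 ± 12.6 CPM in the WT, and Suclg2 at 33.0 ± 1.34 CPM in the KO and 63.5 ± 3.07 CPM in the WT (SD, n = 3 each; adjusted p = 6.66e-05 and 4.14e-05). Counts of rises depended on the libraries: 1 gene of pyruvate handling rose without KO replicate 1, KO replicate 2, WT replicate 2 or WT replicate 3, and 0 of the citrate cycle without KO replicate 2 or WT replicate 2.

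Of 15 tested genes in side branches, 5 fell and 4 rose, and 3 fell without KO replicate 2. Slc2a6, which encodes GLUT6, a transporter found mainly on vesicles inside cells, had 51.0, 37.2 and 32.2 CPM in the KO libraries, against 10.3, 10.3 and 10.9 CPM in the WT libraries (log2 fold change 1.93 ± 0.17, edgeR adjusted p = 8.46e-05). This rise in a sugar transporter stood beside the fall of Slc2a3, and KO library 1 was the highest. Emb, embigin, a partner of lactate transporters, had 99.9 ± 11.7 CPM in the KO and 174 ± 8.17 CPM in the WT (SD, n = 3 each; log2 fold change -0.80 ± 0.09, adjusted p = 2.77e-04).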

How the data were processed

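RNA-seq libraries of stimulated splenic CD4+ T cells from 3 miPEP31 KO and 3 WT samples were analysed; groups and replicate numbers were taken from the labels. Gene expression was deposited by the authors as estimated counts, not normalized; 72.2% of the values above 0 were whole to within 1e-06. Per the labels' protocols, Trizol was used for RNA extraction and a TruSeq kit for the libraries. Bowtie 0.12.2 and the build mm8 appear, with no role, in the submitters' processing notes. The counting program and its strand setting are not stated there, so reads of overlapping genes (18 of the 34 members, 15 of them on the opposite strand) cannot be told apart. All columns of sample values were used. A second deposited table, of log values for a few genes, held no member and was not used here.

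Counts were rounded to whole numbers, genes were filtered with filterByExpr (minimum count 10), which kept 14387 genes, and library sizes were scaled with TMM. KO was tested against WT with the quasi-likelihood test of edgeR 4.0.16 in R 4.3.3, with Benjamini-Hochberg adjustment over all genes tested and a threshold of 0.05. CPM use the TMM-scaled totals; a standard error is the log2 fold change divided by the square root of F. Levels between genes are CPM per kilobase of merged exons. Symbols, lengths and gene coordinates were looked up by gene ID in GENCODE M21 (GRCm38). Two-sided exact permutation tests over libraries were used for shares and step sums. The members and lists were chosen with earlier results of these data known. All members are named; those that passed and averaged at least 1 CPM and the leading isoform of each step get every library's value, and other lists give up to 4 genes by smallest p, of which some are described and 1 is not reported here, plus Hif1a, Myc, Txnip and Arrdc4. Alternatives were DESeq2 1.42.0, limma-voom 3.58.1, other scalings and filters, a replicate block and leaving out each library. The edgeR script was tested on simulated data. Promoter windows came from RefSeq's table, which had an entry for 33 members.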

Additional observations from a re-analysis of the deposited data

How the results depend on the processing

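Beside the main analysis, 14 settings were run. The genes that fell numbered 15 to 23 of the glycolysis list over them (19 in the main analysis, 16 to 23 when 1 library was left out), and over all genes 2419 to 3594 fell and 2723 to 4088 rose. Glycolysis genes higher in the KO numbered 1 with plain library sizes and 0 to 1 when 1 library was left out. Of the 19 genes that fell, 15 passed in all settings; Aldoc, Tpi1, Gapdh and Pgam1 did not. Their adjusted p without a filter on low counts was 0.0681, 0.0673, 0.156 and 0.0584, and with plain library sizes it was 0.0509 for Tpi1 and 0.0693 for Gapdh, which also missed with upper-quartile factors (0.0532). The lists outside glycolysis together gave 20 rises, and 12 to 20 when 1 library was left out (12 without KO replicate 2, 13 without WT replicate 2). Among the single genes and shares, only values that had not been called changed sign: Pfkl had a log2 fold change of -0.00199 with RLE factors and with DESeq2, -0.0183 with upper-quartile factors, -0.00129 with no filter and -0.10 to 0.11 when 1 library was left out. Pdk3 had -0.00117 with upper-quartile factors and -0.0347 to 0.0663 when 1 library was left out, and Pdk4 -0.0163 with limma-voom and -0.50 to 0.70. The difference in the Slc16a1 share was 0.0112 percentage points without division by length, 0.0251 with the longest transcript as length and -5.78 to 5.03 when 1 library was left out. The cause was not tested. Same-numbered KO and WT libraries did not deviate together (correlations 0.00103, -0.00718 and -0.0156). This cannot show whether the numbers pair the samples, since a small shared effect could leave little correlation, and the labels do not say. With the replicate block 19 glycolysis genes fell and 0 rose, and over all genes 2687 fell and 3049 rose. With 3 libraries a group, no exact test over libraries can go below 0.1, and rare RNAs such as Hk3, Pdk4 and Pdk2 rest on few counts.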
